A study of Mus musculus with 12 samples.

Results

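Rab GTPases are the small GTPases that give each membrane compartment of the cell its identity, and their genes were followed here through RNA immunoprecipitation (RIP) of the 3 YTHDF proteins from mouse hippocampal neurons. A gene counted as a Rab gene when it was annotated as protein-coding, its symbol was Rab followed by a number and at most 1 letter, and it was listed in the authors' table, which keeps genes whose normalized counts average 10 or more. The rule gave 50 genes of the 16716 listed, of which 13438 were protein-coding. Rab17, Rab19, Rab20, Rab25, Rab32, Rab37, Rab38, Rab42 and Rab44 lay outside it, with mean counts of 0.25 to 6.25, and the members just inside it were Rab27a and Rab7b, with mean normalized counts of 15.1 and 18.2.

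Hippocampal neurons of C57BL/6 newborn mice were cultured for 14 days and lysed, and RNA was sequenced from the whole lysate (Input) and from precipitates made with antibodies against YTHDF1, YTHDF2 or YTHDF3, with 3 libraries in each of the 4 groups. The groups share strain, age and culture time. Pups of both sexes were pooled, and each replicate was a pooled lysate that supplied all 3 RIPs and its Input. No precipitation with a control antibody is analysed here, so every comparison with Input sets a precipitate against total RNA. In such bulk libraries, fewer cells of a type and less RNA per cell cannot be told apart.

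A Rab protein cycles between a GTP-bound form on the membrane and a GDP-bound form in the cytosol, where a chaperone holds its lipid tail. Guanine nucleotide exchange factors (GEFs) switch it on, GTPase-activating proteins (GAPs) switch it off, and effectors such as tethers and motor adaptors bind the active form. Neurons use Rabs to load and recycle synaptic vesicles, to carry receptors along dendrites and to send endosomes back to the soma. YTHDF1, YTHDF2 and YTHDF3 are cytoplasmic readers of N6-methyladenosine (m6A), a methyl mark on mRNA adenosines that is frequent within the letters GGACT and dense near stop codons.

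The GGACT letters were searched on the sense strand of 1 annotated transcript per gene (GENCODE M21, GRCm38), as a description of the sequence and not as a map of methylated sites. They occurred in the transcripts of 46 of 50 Rab genes (92%), against 92.1% of the 13331 protein-coding genes with a coding sequence. Fewer Rab coding sequences held a match (25 of 50, 50%, against 75.3%) and more of their 3′ untranslated regions did (38 of 50, 76%, against 64.8%). These shares depend on length. The median Rab coding sequence was shorter (645 bases against 1377) and the median 3′ untranslated region longer (2119 against 1236). Per kb of transcript the Rab genes had a median of 0.861 matches, against 1.03. In 6 of the 43 members whose switch I sequence was found, the match fell in the codons of switch I, the loop that changes shape with the bound nucleotide. These windows of 25 bases, with GGACT in capitals, are shown because genes that hold these letters in the codons of switch I went in opposite directions in YTHDF1 RIP. In Rab28 the letters lie in another reading frame than in the other 5 genes, at neighbouring codons.
Rab33a: ctatcggtgtGGACTtcagggagaa
Rab33b: cgatcggggtGGACTtccgagagcg
Rab7: caataggagcGGACTttctgaccaa
Rab28: gcagacgataGGACTggatttcttt
Rab36: cgatcggcgtGGACTttgaaatcga
Rab39: cagtcggcgtGGACTtcttctcgcg

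The windows lie in coding exons at chrX:48519803-48519827 (+ strand) for Rab33a, chr3:51484525-51484549 (+) for Rab33b, chr6:88012344-88012368 (-) for Rab7, chr5:41703460-41703484 (-) for Rab28, chr10:75046070-75046094 (+) for Rab36 and chr9:53705961-53705985 (-) for Rab39. In the YTHDF1 RIP against Input, the log2 fold change was 1.49 for Rab33b, -1.96 for Rab33a, -1.55 for Rab7 and -0.78 for Rab28, all 4 called. It was 0.18 for Rab39 and -0.48 for Rab36, which did not pass the test. The match closest after the stop codon, in the 3′ untranslated region, is shown for 4 further genes that the results turn on.
Rab8a: acggctgcccGGACTcgattgagaa
Rab8b: gcaaaagagcGGACTcctttcttta
Rab23: actgctctgtGGACTcactctagtt
Rab11a: taaacacaaaGGACTgttatggttt

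These windows lie at chr8:72180225-72180249 (+), 98 bases after the stop codon, for Rab8a, at chr9:66847532-66847556 (-), 173 bases after it, for Rab8b, at chr1:33739559-33739583 (+), 177 bases after it, for Rab23, and at chr9:64716226-64716250 (-), 609 bases after it, for Rab11a. The whole transcripts held 9 matches in Rab8a, 4 in Rab8b, 7 in Rab23 and 3 in Rab11a. Rab8a, with more matches than Rab8b, was depleted in all 3 RIPs. Rab8b was enriched in YTHDF1 RIP, depleted in YTHDF2 RIP and not called in YTHDF3 RIP. Whether the number of matches plays a part was not tested.

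Library totals ran from 6020072 to 38909592 counts, and no pair of libraries was identical. The 8 neuronal markers were all detected, at summed levels of 486 to 693 CPM per kb in Input, 462 to 752 in YTHDF1 RIP, 257 to 381 in YTHDF2 RIP and 332 to 602 in YTHDF3 RIP. The 5 astrocyte markers were detected as well and varied within groups, with sums of 43.7, 199 and 463 CPM per kb in Input replicates 1 to 3. The microglial and endothelial sums in Input were at most 3.45 and 1.15 CPM per kb. The 5 oligodendrocyte markers, Pdgfra included, summed to 2.07 to 11.1 CPM per kb in Input and 10.4 to 26.3 in YTHDF1 RIP. Their sums were 16.5 to 22.3 in YTHDF2 RIP and 2.03 to 22.6 in YTHDF3 RIP. Rab31, an early endosomal Rab, moved with the astrocyte markers in Input, with 13.5, 55.6 and 67.8 CPM in Input, 21.2, 15.9 and 13.6 CPM with YTHDF1, 36.8, 24.8 and 21.7 CPM with YTHDF2 and 18.7, 60.3 and 69.6 CPM with YTHDF3. It was called depleted in YTHDF1 RIP (-1.44 ± 0.56, SE, adjusted p = 0.049) although the groups overlapped. With the replicate number as a block in the fit the value was -1.27 (adjusted p = 0.102), and leaving out any 1 library other than Input replicate 1 raised the adjusted p to 0.0674 to 0.146. The part of astrocyte content in it was not tested.

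Levels in the cells were read from Input, as CPM (read counts scaled to library sizes with TMM factors) per kb of exonic length so that genes can be compared. Rab6b, a Golgi and retrograde transport Rab of neurons, was highest at 115.6 ± 28.5 CPM per kb (SD, n = 3), followed by Rab3a, the main synaptic vesicle Rab, at 112 ± 28.1. Rab6a (83.5 ± 23.7), Rab2a (69.5 ± 3.23) and Rab7 (62.2 ± 2.01) came next. The ranges of Rab6b and Rab3a overlapped, as did that of Rab6a with those of Rab6b, Rab3a, Rab2a and Rab7, whereas Rab2a lay above Rab7 in all 3 Input libraries. The median over the 50 members was 8.72 CPM per kb, and Rab39, Rab27a and Rab7b were lowest at 0.633, 0.274 and 0.222, where 5 to 31 reads per Input library stood behind a value.

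Most Rab mRNAs were at a lower share in the YTHDF RIPs than in Input. A gene was called enriched or depleted where its log2 fold change was at least 0.32 in size and its p, adjusted by the Benjamini-Hochberg method over the 16820 genes tested with edgeR's quasi-likelihood test, did not exceed 0.05. In the YTHDF1 RIP 29 of 50 members were depleted (58%, against 26.1% of all genes tested) and 8 were enriched (16%, against 27.5%). For YTHDF2, 26 members were depleted (52%, against 19.3%) and 2 enriched (4%, against 16.1%). For YTHDF3, 17 were depleted (34%, against 23.2%) and 2 enriched (4%, against 16.7%). Of protein-coding genes alone, 23.5%, 17.1% and 19.6% were depleted and 29.9%, 18% and 19.3% enriched with YTHDF1, YTHDF2 and YTHDF3. The median log2 fold change of the members was -0.75 in YTHDF1 RIP, where single libraries gave -0.94, -0.74 and -0.66, and all genes tested had a median of 0.02. It was -0.84 in YTHDF2 RIP (libraries -0.72, -0.89 and -0.75, all genes 0.02) and -0.41 in YTHDF3 RIP (libraries -0.38, -0.38 and -0.52, all genes 0.05). The 3 comparisons share the Input libraries, so their values stand side by side and are not independent. In this fit Rab3c, Rab7b, Rab13, Rab26, Rab27a, Rab35, Rab36, Rab40b and Rab43 were not called in any RIP.

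Rab coding sequences are short, and across the transcriptome a short coding sequence went with a low RIP to Input ratio. The members' coding sequences had a median of 645 bases (366 to 876), against 1377 for protein-coding genes. Over 13331 protein-coding genes the Spearman correlation between coding length and log2 fold change was 0.60 in YTHDF1 RIP, 0.55 in YTHDF2 RIP and 0.65 in YTHDF3 RIP, a description across genes that share their libraries. Within the narrow range of the 50 members it was 0.16, 0.05 and 0.16. When the trend with coding length was removed from each library, an alternative chosen after seeing the data, the YTHDF1 RIP had 11 enriched and 11 depleted members (22% each, against 17.9% and 21% of protein-coding genes) with a median of -0.22 (protein-coding genes -0.13). The YTHDF2 RIP then had 5 enriched (10%, against 9.96%) and 13 depleted (26%, against 12.4%) with a median of -0.31 (protein-coding genes -0.04). The YTHDF3 RIP had 9 enriched (18%, against 9.52%) and 5 depleted (10%, against 11%) with a median of 0.30 (protein-coding genes 0.04), so that the direction of the family turned. Of the calls against Input, 19 of 37, 15 of 28 and 7 of 19 remained. Of the 150 values of members, 32 changed sign, of which 3 had been called depleted (Rab11b with YTHDF1, Rab2a with YTHDF2, Rab5a with YTHDF3) and 4 others became enriched. The latter were Rab22a (0.53) and Rab35 (0.56) in YTHDF1 RIP and Rab2a (0.54) and Rab14 (0.64) in YTHDF3 RIP. With those 4, 13 values became called, all enriched. The others belonged to Rab40b with YTHDF1, to Rab21, Rab34 and Rab43 with YTHDF2, and to Rab24, Rab34, Rab35, Rab36 and Rab43 with YTHDF3. Removal of a trend with exonic length, untranslated regions included, left medians of -0.77, -0.82 and -0.44.

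By the study's methods, same-numbered libraries share a lysate. Deviations of YTHDF1 RIP libraries from the group mean correlated with those of the same-numbered Input at 0.0895, -0.269 and -0.329. For YTHDF2 RIP these were 0.186, -0.326 and -0.318. Whether the block pairs the right libraries in these RIPs was not tested. With the replicate number as a block and only the compared groups in the fit, the YTHDF1 RIP had 3 enriched and 18 depleted members (6% and 36%, against 14.2% and 18% of all genes). For YTHDF3 the same kind of fit left no call out and added 12, with 26 members depleted (52%, against 32.3%) and 5 enriched (10%, against 36.5%). Of the 12 added, Rab13 rested on 12 to 31 counts per library in Input and 6 to 41 in YTHDF3 RIP, with overlapping CPM values. Rab13 (-1.55, adjusted p = 0.000116), Rab11a (-0.88, adjusted p = 1.59e-08), Rab6a (-0.72, adjusted p = 3.78e-07), Rab27b (-1.02, adjusted p = 5.55e-07), Rab10, Rab28, Rab29, Rab30 and Rab9b were depleted in that fit, and Rab36 (0.56, adjusted p = 0.000271), Rab24 (0.46, adjusted p = 0.00237) and Rab40b (0.38, adjusted p = 0.00638) enriched. In the YTHDF1 RIP it dropped 16 calls, at adjusted p values of 0.0578 to 0.33, namely those of Rab11a, Rab30, Rab18, Rab21, Rab24, Rab14, Rab3b, Rab28, Rab4b, Rab6b, Rab34, Rab15, Rab40c, Rab11b, Rab31 and Rab12. In the YTHDF2 RIP it dropped Rab2a, Rab4a, Rab39, Rab8b, Rab15 and Rab27b (adjusted p = 0.0504 to 0.13) and added Rab11a (-1.43, adjusted p = 0.00706) and Rab30 (-0.89, adjusted p = 0.0198), for 2 enriched and 22 depleted in all (4% and 44%, against 11.9% and 16.8%). Scaling by library size alone moved the median of all genes by -0.40 in YTHDF1 RIP and by 0.33 in YTHDF3 RIP, and gave 4 enriched and 34 depleted members in the former (8% and 68%, against 18.3% and 36.5% of all genes) and 5 and 14 in the latter (10% and 28%, against 28.7% and 17.8%). Relative to all genes, the members' median was at -0.78 in YTHDF1 RIP and -0.46 in YTHDF3 RIP under both scalings. A change of scaling shifts all genes of a comparison nearly alike, so this agreement was fixed in advance and is not read as support. In the fit over all 12 libraries, the block gave 7 enriched and 29 depleted, 2 and 24, and 2 and 19 members with YTHDF1, YTHDF2 and YTHDF3, against 26.9% and 25.8%, 15.7% and 18.5%, and 16.5% and 22.7% of all genes.

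**Figure D1:**
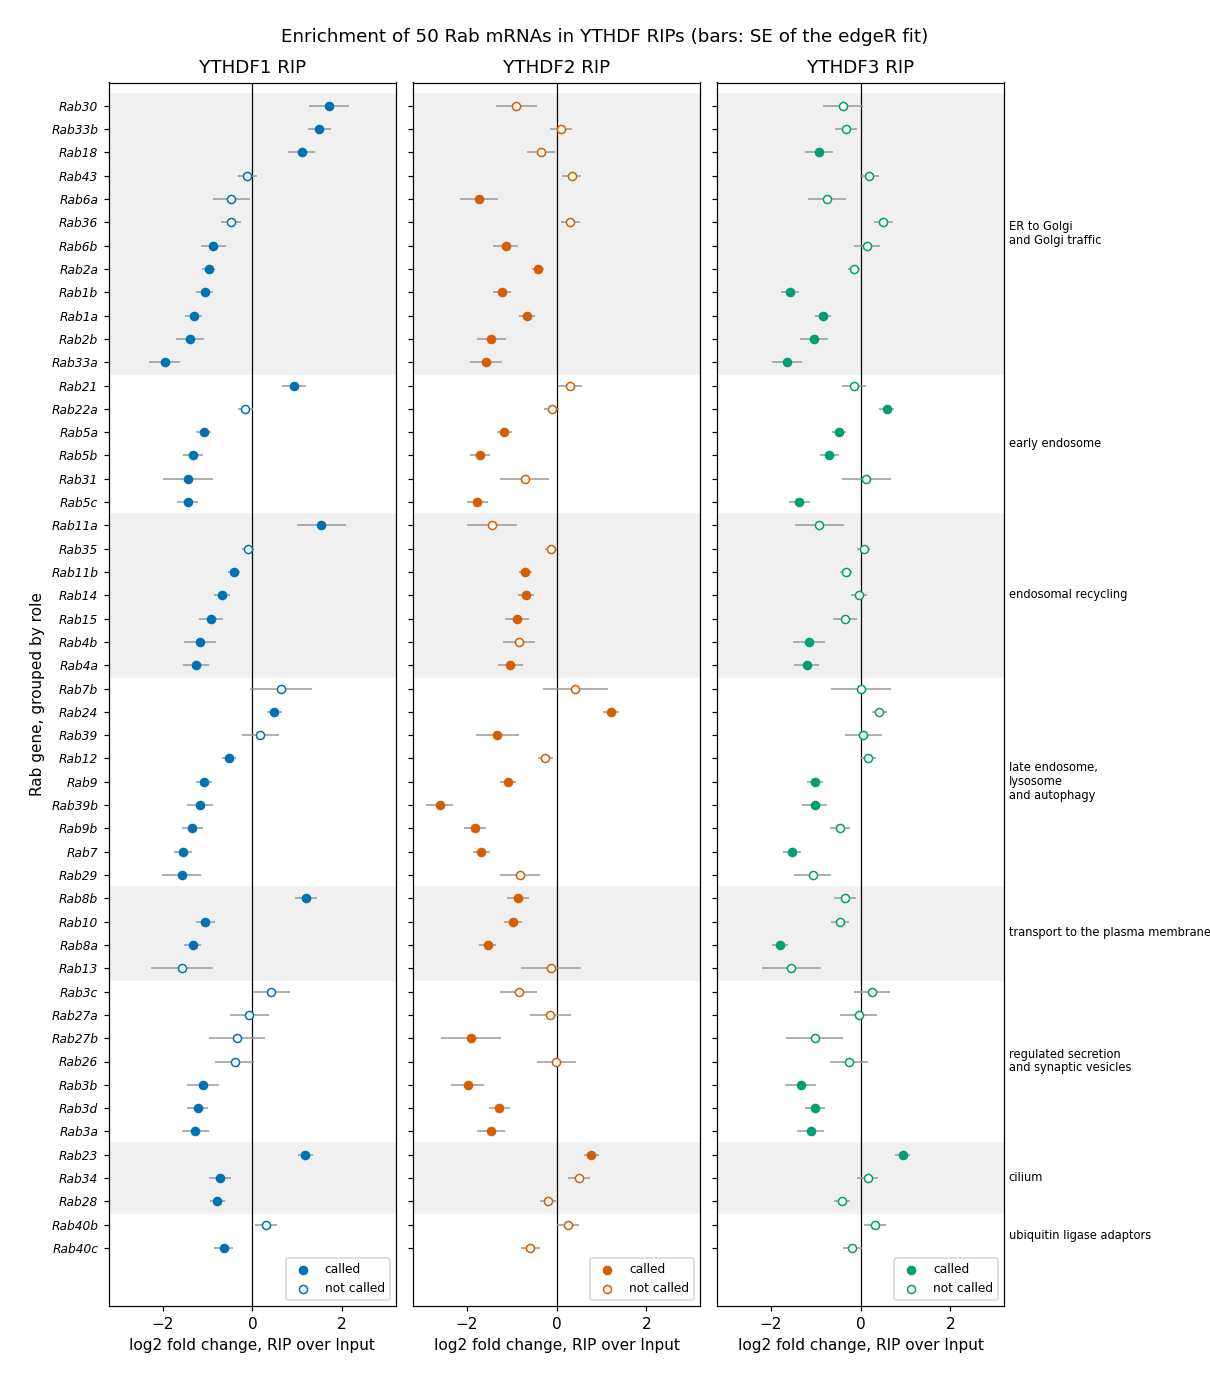
Log2 fold change of each Rab gene against Input (x axis) in the 3 RIPs, genes grouped by role (y axis), with SE bars and filled points for calls. Most points lie below 0, with medians of -0.75, -0.84 and -0.41, and Rab23 is the gene called enriched in all 3.

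**Figure D2:**
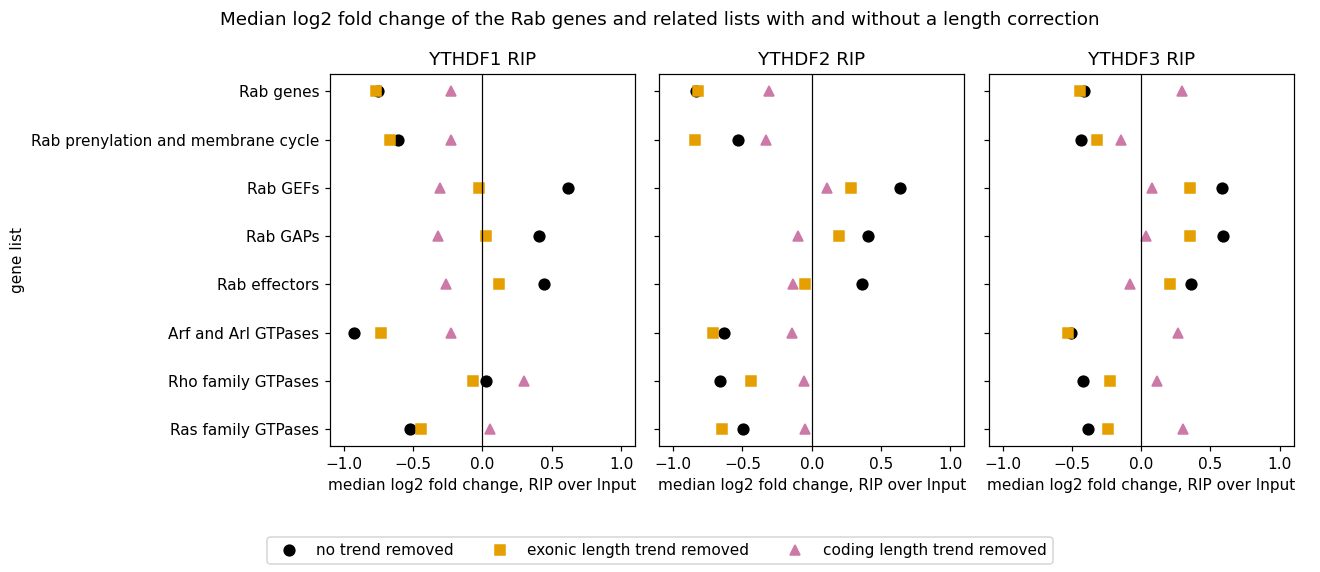
Median log2 fold change against Input (x axis) of Rab genes, Rab regulators and other small GTPases (y axis) in each RIP (panels), with no trend removed (circles) and after a trend with exonic length (squares) or coding length (triangles) was removed. The Rab medians move from -0.75 to -0.22, from -0.84 to -0.31 and from -0.41 to 0.30, and those of GEFs, GAPs and effectors become lower.

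Among the 12 Rabs of traffic between endoplasmic reticulum and Golgi, 3 were enriched in YTHDF1 RIP (Rab18, Rab30 and Rab33b) and 6 depleted, with a median of -0.67. The enriched share of 25% is near the 27.5% of all genes, and 50% were depleted, against 26.1%. In the YTHDF2 RIP 7 of them were depleted and in YTHDF3 RIP 5, shares of 58.3% and 41.7% against 19.3% and 23.2%, with medians of -0.78 and -0.57 and none enriched.

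Rab30, a Golgi Rab, measured 38.6, 31.4 and 34.2 CPM in Input, 35.8, 209 and 96.7 CPM with YTHDF1, 19.4, 18.4 and 18.2 CPM with YTHDF2 and 29.7, 26.3 and 23.3 CPM with YTHDF3. YTHDF1 RIP replicate 2 was far above all other libraries, replicate 1 lay within the Input range, and both other RIPs lay below Input. The log2 fold change in YTHDF1 RIP was 1.71 ± 0.45 (SE, adjusted p = 0.00757), and without replicate 2 it was 0.86 (adjusted p = 0.0346).

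Rab33b, which acts at the Golgi and in autophagosome formation, measured 12.6, 12.9 and 17 CPM in Input, 30.6, 51.4 and 37.8 CPM with YTHDF1, 17.9, 13.3 and 14.3 CPM with YTHDF2 and 8.39, 12.3 and 13.2 CPM with YTHDF3. All 3 YTHDF1 RIP libraries exceeded all Input libraries (1.49 ± 0.25, SE, adjusted p = 0.000454), and the other RIPs overlapped Input. Its paralog Rab33a, a Rab of axonal vesicles, measured 11.8, 6.74 and 12.2 CPM in Input, 2.2, 3.77 and 1.95 CPM with YTHDF1, 2.52, 4.34 and 3.48 CPM with YTHDF2 and 4.04, 3.0 and 2.75 CPM with YTHDF3. Here every RIP library lay below every Input library, with log2 fold changes of -1.96 ± 0.35 (adjusted p = 0.00068) in YTHDF1 RIP, -1.57 ± 0.35 (adjusted p = 0.0052) in YTHDF2 RIP and -1.65 ± 0.34 (adjusted p = 0.00245) in YTHDF3 RIP.

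Rab18, a Rab of the endoplasmic reticulum and lipid droplets, was described in full because it went in opposite directions, a choice made after its values were seen. It measured 49.2, 52.2 and 49.3 CPM in Input, 56.4, 170.1 and 96.1 CPM with YTHDF1, 45.2, 33.9 and 39.5 CPM with YTHDF2 and 28.1, 26.3 and 24.9 CPM with YTHDF3. The YTHDF1 RIP libraries lay above Input (1.1 ± 0.31, SE, adjusted p = 0.0106), led by replicate 2, and without that library the value was 0.53 (adjusted p = 0.0446). The YTHDF3 RIP libraries lay below Input (-0.93 ± 0.31, SE, adjusted p = 0.0316), a call that did not hold when any single one of these 6 libraries was dropped (adjusted p = 0.0599 to 0.0847). With the coding length trend removed the YTHDF3 value was -0.19 (adjusted p = 0.668).

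Rab1b, which with Rab1a drives transport out of the endoplasmic reticulum, measured 44.8, 45.2 and 51.3 CPM in Input, 17.5, 26.6 and 23.2 CPM with YTHDF1, 17.5, 19.1 and 24 CPM with YTHDF2 and 17.9, 14.3 and 14.8 CPM with YTHDF3. All 9 RIP libraries lay below Input, and the largest change was in YTHDF3 RIP (-1.59 ± 0.20, SE, adjusted p = 0.000121). Rab1a changed by -1.31, -0.66 and -0.84 with YTHDF1, YTHDF2 and YTHDF3 and was called depleted in each. The same held for Rab2b, a Golgi Rab, at -1.4, -1.46 and -1.04.

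Rab2a, which acts at the Golgi and on late endosomes, measured 155, 141 and 149 CPM in Input, 71.2, 76 and 78.8 CPM with YTHDF1, 113, 111 and 109 CPM with YTHDF2 and 146, 128 and 124 CPM with YTHDF3. It was called depleted in YTHDF1 RIP (-0.98 ± 0.14, SE, adjusted p = 0.000152) and the YTHDF2 RIP (-0.42 ± 0.14, SE, adjusted p = 0.0332), and overlapped Input in YTHDF3 RIP. The YTHDF2 call was lost without any of the 6 libraries (adjusted p = 0.059 to 0.0999) and with the replicate block (-0.42, adjusted p = 0.0579), and with the coding length trend removed the YTHDF2 value was 0.11 and the YTHDF3 value 0.54, the latter called enriched.

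The most abundant member, Rab6b, measured 738, 552 and 456 CPM in Input, 231, 303 and 419 CPM with YTHDF1, 262, 228 and 303 CPM with YTHDF2 and 821, 636 and 464 CPM with YTHDF3. Its YTHDF1 and YTHDF2 RIP libraries lay below Input, with log2 fold changes of -0.87 ± 0.28 (adjusted p = 0.022) and -1.14 ± 0.29 (adjusted p = 0.00989), whereas the YTHDF3 RIP overlapped Input (0.14 ± 0.28, adjusted p = 0.726). The YTHDF1 value was -0.66 (adjusted p = 0.0908) without Input replicate 1 and -0.69 (adjusted p = 0.0754) without YTHDF1 replicate 1. Rab6a measured 399, 311 and 223 CPM in Input, 93.4, 311 and 271 CPM with YTHDF1, 85, 75.2 and 120.2 CPM with YTHDF2 and 265, 161 and 129.5 CPM with YTHDF3. It was depleted in YTHDF2 RIP (-1.73 ± 0.43, SE, adjusted p = 0.00933), and in YTHDF1 RIP replicate 1 lay well below the other 2 libraries. Rab36 and Rab43, 2 further Golgi Rabs, were not called, and 75.4% of the exonic bases of Rab43 are shared with another annotated gene on the same strand, so its counts are uncertain.

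**Figure D3:**
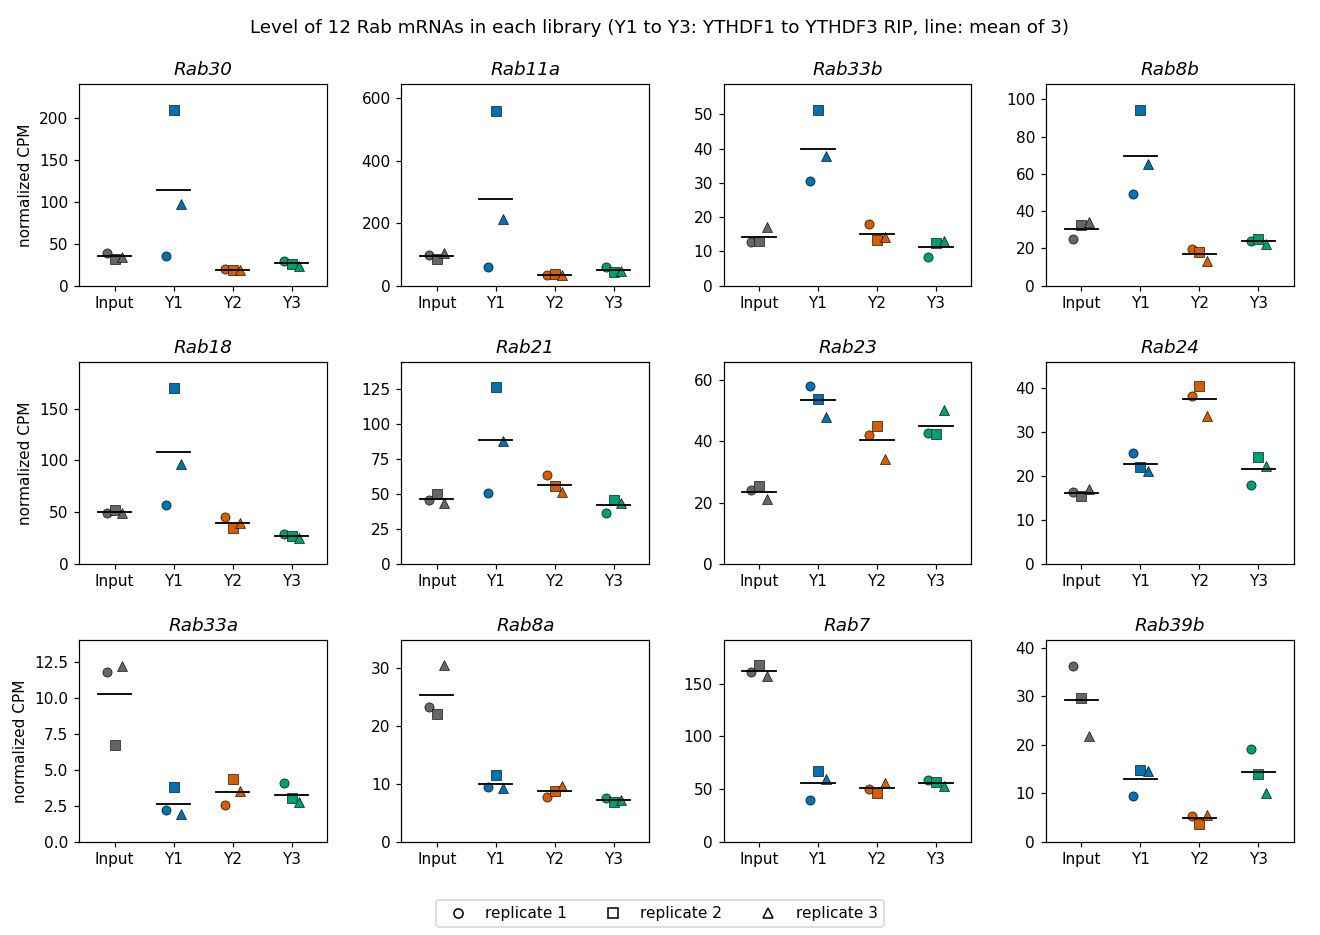
CPM of 12 Rab genes (y axis from 0, scaled per gene) in each of the 12 libraries, by group (x axis), with points for libraries and lines for group means. YTHDF1 RIP replicate 2 stands apart for Rab11a (559 CPM) and Rab30 (209 CPM), while Rab7 and Rab8a sit below Input in all 9 RIP libraries.

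The 6 Rabs of the early endosome had 4 depleted members in YTHDF1 RIP, 3 in YTHDF2 RIP and 3 in YTHDF3 RIP, with medians of -1.2, -0.94 and -0.32. These are 66.7%, 50% and 50% of the group (all genes 26.1%, 19.3% and 23.2%). The 3 Rab5 genes, whose products fuse early endosomes, made up the YTHDF2 and YTHDF3 calls. Rab5c changed by -1.44, -1.77 and -1.37 with YTHDF1, YTHDF2 and YTHDF3, Rab5b by -1.32, -1.7 and -0.70, and Rab5a by -1.08, -1.17 and -0.49, and all 9 values were called. Without single libraries the YTHDF3 calls of Rab5a and Rab5b reached adjusted p values of 0.0567 to 0.112. Rab5c kept its calls in all 3 RIPs after the coding length trend was removed.

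Rab22a, which sorts cargo from early to recycling endosomes, measured 35.1, 38.3 and 32.2 CPM in Input, 29.9, 31.6 and 33.3 CPM with YTHDF1, 39.6, 30.1 and 28.2 CPM with YTHDF2 and 49.7, 57.4 and 50.9 CPM with YTHDF3. The YTHDF3 RIP libraries lay above Input (0.58 ± 0.16, SE, adjusted p = 0.0151), and the other RIPs overlapped it. Without YTHDF3 replicate 2 its value was 0.51 (adjusted p = 0.0675). Rab21, an integrin-trafficking Rab, was enriched in YTHDF1 RIP (0.94 ± 0.27, SE, adjusted p = 0.0117), and without replicate 2 it was 0.51 (adjusted p = 0.0653) and without Input replicate 3 it was 0.78 (adjusted p = 0.0544).

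Of the 7 recycling Rabs, 5 were depleted and 1 enriched in YTHDF1 RIP, 4 depleted in YTHDF2 RIP and 2 in YTHDF3 RIP, with medians of -0.67, -0.83 and -0.35. The depleted shares were 71.4%, 57.1% and 28.6% (all genes 26.1%, 19.3% and 23.2%), the last near the background. The enriched gene was Rab11a, the Rab of the recycling endosome that feeds receptors into dendritic spines. It measured 98.4, 83.8 and 104 CPM in Input, 58.5, 559 and 212 CPM with YTHDF1, 34.2, 36.5 and 35.1 CPM with YTHDF2 and 58.2, 44.1 and 47.6 CPM with YTHDF3. The YTHDF1 RIP libraries ran from below Input to more than any other library, and both other RIPs lay below Input without passing the test (adjusted p = 0.0649 and 0.201), though both were called in the fits of 2 groups with the block. The YTHDF1 value of 1.54 ± 0.55 (SE, adjusted p = 0.0343) fell to 0.43 (adjusted p = 0.361) without replicate 2 and rose to 2.02 without replicate 1, so that 1 library set its size. Without YTHDF1 replicate 3 the adjusted p was 0.0518 and without any 1 Input library it was 0.0733 to 0.0969, and with the replicate block the value was 1.33 (adjusted p = 0.0823).

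Rab11b, the paralog of Rab11a, changed by -0.41 and -0.69 in the YTHDF1 and YTHDF2 RIPs, both called, and a processed pseudogene with near-identical sequence could share its reads, as for Rab2a, Rab5b, Rab7, Rab8b and Rab9. Rab4a, the Rab of fast recycling, changed by -1.26, -1.03 and -1.21 and was called depleted in each RIP. Rab4b shares 65.0% of its exonic bases with another gene, and its calls in the YTHDF1 and YTHDF3 RIPs (-1.17 and -1.16) are uncertain. Rab14 and Rab15 were depleted in the YTHDF1 and YTHDF2 RIPs, at -0.67 and -0.69 for Rab14 and -0.92 and -0.88 for Rab15. Rab35, of fast recycling and cytokinesis, had log2 fold changes of -0.10 ± 0.14, -0.12 ± 0.14 and 0.06 ± 0.14 (SE) that did not pass the test. With the coding length trend removed it was called enriched at 0.56 in YTHDF1 RIP (adjusted p = 0.0224) and 0.83 in YTHDF3 RIP (adjusted p = 0.0052).

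The late endosomal, lysosomal and autophagy Rabs, 9 genes, had 6 depleted and 1 enriched member in YTHDF1 RIP, 5 and 1 in YTHDF2 RIP, and 3 and 0 in YTHDF3 RIP. Their medians were -1.08, -1.09 and -0.47, and 66.7%, 55.6% and 33.3% were depleted (all genes 26.1%, 19.3% and 23.2%). Rab7, which directs late endosomes to lysosomes and carries neurotrophin signals along axons, measured 162, 168 and 158 CPM in Input, 39.2, 67.1 and 59.8 CPM with YTHDF1, 50, 46.7 and 55.3 CPM with YTHDF2 and 58.6, 57 and 52.5 CPM with YTHDF3. No RIP library reached the lowest Input library, and the 3 changes were of like size, at -1.55 ± 0.19 (adjusted p = 7.1e-05), -1.68 ± 0.19 (adjusted p = 0.000291) and -1.53 ± 0.19 (adjusted p = 0.000125). All 3 calls remained after the coding length trend was removed, at -0.94, -1.13 and -0.80.

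Rab24, an autophagy Rab, measured 16.2, 15.2 and 16.8 CPM in Input, 25.2, 21.8 and 20.9 CPM with YTHDF1, 38.1, 40.4 and 33.6 CPM with YTHDF2 and 17.9, 24.3 and 22.2 CPM with YTHDF3. The YTHDF2 RIP was highest (1.21 ± 0.17, SE, adjusted p = 0.000491), and all RIP libraries exceeded Input. The smaller YTHDF1 value (0.49 ± 0.17, SE, adjusted p = 0.0265) lost its call when any 1 of the 6 libraries was left out (adjusted p = 0.0583 to 0.115), and the YTHDF3 value of 0.41 ± 0.17 had an adjusted p of 0.067.

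Rab39b, an X-linked Rab that affects glutamate receptor composition, measured 36.2, 29.5 and 21.9 CPM in Input, 9.48, 14.7 and 14.5 CPM with YTHDF1, 5.18, 3.59 and 5.5 CPM with YTHDF2 and 19, 14 and 10 CPM with YTHDF3. The YTHDF2 RIP held the lowest libraries, and its change of -2.61 ± 0.31 (SE, adjusted p = 0.000294) was the lowest of any member in any RIP. The YTHDF1 and YTHDF3 values were -1.17 and -1.03, both called depleted, the latter at an adjusted p of 0.055 without Input replicate 1 and 0.0513 without YTHDF3 replicate 3. Rab29, a Rab that recruits LRRK2, measured 1.14, 2.86 and 3.11 CPM in Input, 0.347, 0.925 and 0.974 CPM with YTHDF1, 1.2, 1.35 and 1.46 CPM with YTHDF2 and 0.971, 1.22 and 1.16 CPM with YTHDF3. It rested on 3 to 39 counts per library and was depleted in YTHDF1 RIP (-1.58 ± 0.44, SE, adjusted p = 0.0103).

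Rab9b, of transport from late endosomes to the Golgi, measured 42.4, 27 and 38.2 CPM in Input, 10.6, 17.6 and 14 CPM with YTHDF1, 9.57, 11.7 and 9.2 CPM with YTHDF2 and 30.1, 23 and 24.6 CPM with YTHDF3. The YTHDF1 and YTHDF2 RIPs lay below Input, at -1.34 ± 0.23 (adjusted p = 0.000595) and -1.82 ± 0.24 (adjusted p = 0.000408), and the YTHDF3 RIP overlapped it. Rab9 changed by -1.08, -1.09 and -1.02 and was called depleted in each RIP. Rab12 and Rab39 were called in 1 RIP each, Rab12 at -0.52 in YTHDF1 RIP and Rab39 at -1.32 in YTHDF2 RIP, where the replicate block gave an adjusted p of 0.0605 and leaving out Input replicate 3 gave -0.68 (adjusted p = 0.213) and any 1 YTHDF2 library 0.101 to 0.125.

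Among the 4 Rabs of transport to the plasma membrane, 2, 3 and 1 were depleted with YTHDF1, YTHDF2 and YTHDF3, with medians of -1.19, -0.91 and -1.01, and Rab8b was enriched with YTHDF1. The depleted shares were 50%, 75% and 25% (all genes 26.1%, 19.3% and 23.2%). Rab8a, which sends Golgi vesicles to dendrites and the cilium, measured 23.3, 22.1 and 30.6 CPM in Input, 9.37, 11.5 and 9.23 CPM with YTHDF1, 7.71, 8.82 and 9.65 CPM with YTHDF2 and 7.57, 6.89 and 7.28 CPM with YTHDF3. Input lay above all 9 RIP libraries, with log2 fold changes of -1.33 ± 0.18 (adjusted p = 0.000134), -1.53 ± 0.19 (adjusted p = 0.000324) and -1.8 ± 0.19 (adjusted p = 4.86e-05). The YTHDF3 change was the lowest in that RIP.

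Rab8b, its close paralog, measured 25.1, 32.3 and 34 CPM in Input, 49.4, 94.3 and 65.3 CPM with YTHDF1, 19.4, 17.9 and 13.4 CPM with YTHDF2 and 24, 25.1 and 22.4 CPM with YTHDF3. The YTHDF1 RIP lay above Input (1.19 ± 0.24, SE, adjusted p = 0.00155) and the YTHDF2 RIP below it (-0.85 ± 0.24, SE, adjusted p = 0.0184). Without YTHDF1 replicate 2 the YTHDF1 value was 0.84 and still called. The YTHDF2 value lost its call without Input replicate 2 (-0.81, adjusted p = 0.0561) or YTHDF2 replicate 3 (-0.71, adjusted p = 0.0733), and with the coding length trend removed the YTHDF2 value was -0.29 (adjusted p = 0.351). Rab10, an exocytic Rab, was depleted at -1.05 in YTHDF1 RIP and -0.97 in YTHDF2 RIP, and Rab13 was not called.

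The Rabs of regulated secretion and synaptic vesicles were 7 genes, with 3, 4 and 3 depleted members with YTHDF1, YTHDF2 and YTHDF3 and none enriched. Their medians were -0.39, -1.28 and -1.02, and 42.9%, 57.1% and 42.9% were depleted (all genes 26.1%, 19.3% and 23.2%). Rab3a measured 318, 235 and 196 CPM in Input, 75.4, 106 and 128 CPM with YTHDF1, 76.3, 75.1 and 121 CPM with YTHDF2 and 155, 106 and 84.7 CPM with YTHDF3. All RIP libraries lay below all Input libraries, at -1.27 ± 0.30 (adjusted p = 0.00413), -1.46 ± 0.30 (adjusted p = 0.00362) and -1.12 ± 0.30 (adjusted p = 0.0116).

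Rab3b, a paralog found in inhibitory terminals, measured 42.1, 22.7 and 24.2 CPM in Input, 10.1, 15.4 and 15.9 CPM with YTHDF1, 8.24, 5.53 and 8.75 CPM with YTHDF2 and 17.9, 9.07 and 8.1 CPM with YTHDF3. Its lowest libraries were those of the YTHDF2 RIP (-1.98 ± 0.37, SE, adjusted p = 0.00201), and it was called in the YTHDF1 and YTHDF3 RIPs as well, at -1.1 and -1.34, the former at an adjusted p of 0.0957 without Input replicate 1 and 0.0708 without YTHDF1 replicate 1. Rab3d changed by -1.22, -1.28 and -1.02, all called, and Rab3c by 0.42, -0.84 and 0.25, none called. Rab27b, a Rab of vesicle release, measured 21, 13.3 and 5.68 CPM in Input, 4.97, 7.75 and 18.4 CPM with YTHDF1, 3.59, 1.79 and 5.16 CPM with YTHDF2 and 11.6, 5.26 and 2.81 CPM with YTHDF3. Its YTHDF2 RIP libraries lay just below the Input range (-1.91 ± 0.68, SE, adjusted p = 0.046), the call was lost on leaving out any 1 library other than Input replicate 3 (adjusted p = 0.0607 to 0.157), and with the replicate block the adjusted p was 0.0635. Rab26, which marks synaptic vesicles for autophagy, was not called.

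Of the 3 Rabs of the primary cilium, Rab23, an inhibitor of Hedgehog signalling, was enriched in every RIP. It measured 24.2, 25.4 and 21.2 CPM in Input, 58.2, 54.1 and 48.1 CPM with YTHDF1, 42.3, 45 and 34.1 CPM with YTHDF2 and 42.8, 42.5 and 50.2 CPM with YTHDF3. All 9 RIP libraries exceeded all Input libraries, with log2 fold changes of 1.18 ± 0.16 (adjusted p = 0.000142), 0.78 ± 0.16 (adjusted p = 0.00397) and 0.94 ± 0.16 (adjusted p = 0.000923). The values after removal of the coding length trend were 1.69, 1.2 and 1.53, and without YTHDF1 replicate 2 the YTHDF1 value was 1.1.

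Rab34, of cilium formation, measured 3.89, 6.3 and 6.97 CPM in Input, 3.35, 3.84 and 3.14 CPM with YTHDF1, 7.97, 8.82 and 7.52 CPM with YTHDF2 and 5.51, 6.7 and 6.85 CPM with YTHDF3. It fell in YTHDF1 RIP (-0.73 ± 0.24, SE, adjusted p = 0.0254), with an adjusted p of 0.0543 to 0.0832 without Input replicate 2 or 3 or YTHDF1 replicate 1, and lay above Input in YTHDF2 RIP without passing the test (adjusted p = 0.126). Rab28, of photoreceptor cilia, was called depleted in YTHDF1 RIP (-0.78), with -0.19 and -0.43 in the others, where it was not called. Of the 2 Rab40 genes, whose products carry a SOCS box and serve ubiquitin ligases, Rab40c was depleted in YTHDF1 RIP (-0.64) and Rab40b was not called.

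The RIPs were also compared with each other, at a fold of at least 2 and an adjusted p of at most 0.05, which asks whether the 3 proteins held different Rab mRNAs. Between the YTHDF1 and YTHDF2 RIPs, 9 of 50 members were higher in YTHDF1 (18%, against 11.4% of all genes tested) and 1 in YTHDF2 (2%, against 6.13%). The 9 were Rab11a, Rab30, Rab8b, Rab39, Rab18, Rab39b, Rab33b, Rab6a and Rab3c, of which Rab6a had an adjusted p of 0.0778 with the replicate block. Rab11a differed by 2.97 ± 0.59 (SE, adjusted p = 0.0031), Rab30 by 2.61 ± 0.47 (adjusted p = 0.0018) and Rab8b by 2.05 ± 0.25 (adjusted p = 0.000166). Without YTHDF1 replicate 2 these 3 differences were 1.88, 1.78 and 1.71, all called, and that of Rab18 was 0.90, below the fold. The calls of Rab6a, Rab39 and Rab3c were each lost in 5 of the 6 fits that left out 1 library (adjusted p = 0.0537 to 0.208 over the 3 genes). Rab34 was the member higher in YTHDF2 RIP (-1.23 ± 0.25, adjusted p = 0.00337).

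Between the YTHDF1 and YTHDF3 RIPs, 6 members were higher in YTHDF1 (12%, against 11%) and 1 in YTHDF3 (2%, against 3.62%), shares close to the background. They were Rab11a (2.47 ± 0.57, SE, adjusted p = 0.01), Rab30 (2.11 ± 0.46, adjusted p = 0.00706), Rab18 (2.03 ± 0.32, adjusted p = 0.00112), Rab33b, Rab8b and Rab21. Without YTHDF1 replicate 2 the values of Rab11a, Rab30 and Rab18 were 1.31, 1.21 and 1.41, all called, and Rab21 was at 0.61 (adjusted p = 0.0682), a call also lost without YTHDF1 replicate 3 (0.92, below the fold) or YTHDF3 replicate 1 (adjusted p = 0.0521). Rab6b was higher in YTHDF3 RIP (-1.01 ± 0.28, adjusted p = 0.0257), and with the replicate block the adjusted p was 0.0513, and without YTHDF1 replicate 1, YTHDF3 replicate 1 or YTHDF3 replicate 2 it was 0.0705 to 0.0948. Between the YTHDF2 and YTHDF3 RIPs none was higher in YTHDF2 (against 3.97%) and 4 were higher in YTHDF3 (8%, against 1.17%). The count of 0 came from edgeR, where 1 member passed an unadjusted p of 0.05 in that direction below the fold, and DESeq2 also gave 0. The 4 were Rab39b (-1.58 ± 0.30, SE, adjusted p = 0.0129), Rab9b (-1.35 ± 0.24, adjusted p = 0.00921), Rab6b (-1.27 ± 0.29, adjusted p = 0.0236) and Rab5b (-1). Only the call of Rab9b held without each of the 6 libraries in turn, since that of Rab39b was lost without YTHDF2 replicate 2 (adjusted p = 0.0582) or YTHDF3 replicate 2 (adjusted p = 0.0555), and those of Rab6b and Rab5b in 5 of the 6 such fits (adjusted p = 0.0545 to 0.0935).

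These differences moved little with coding length. After that trend was removed, 10 of 10, 6 of 7 and 4 of 4 of the calls between RIPs remained, and the call lost was Rab21, whose difference went from 1.09 to 0.95, below the fold. Of the 8 members enriched in YTHDF1 RIP, 6 were highest in replicate 2 and 2 in replicate 1. With only the compared groups and the replicate block in the fit, 9 members were higher in YTHDF1 than in YTHDF2 (against 10.6% of all genes) and 2 lower (against 7.91%), with Rab6a dropped (adjusted p = 0.0578) and Rab27b (1.43, adjusted p = 0.0228) and Rab13 (-1.52, adjusted p = 0.0446) added. Rab13 had 3 to 16 counts per library in YTHDF1 RIP and 11 to 19 in YTHDF2 RIP. In that kind of fit 1 member was higher in YTHDF1 than in YTHDF3 (against 1.95%) and none lower (against 0.6%), as the calls of Rab11a, Rab30, Rab18, Rab8b, Rab21 and Rab6b were lost (adjusted p = 0.063 to 0.219). None was higher in YTHDF2 than in YTHDF3 (against 1.75%) and 2 were higher in YTHDF3 (against 0.583%), as Rab39b (adjusted p = 0.0536) and Rab6b (adjusted p = 0.0634) were lost. Deviations of same-numbered libraries from their group means correlated at 0.106, -0.341 and -0.351 between the YTHDF1 and YTHDF3 RIPs. These were 0.175, -0.322 and -0.355 for YTHDF2 with YTHDF3, and 0.0697, 0.553 and 0.361 for YTHDF1 with YTHDF2. Whether the block pairs the right libraries between RIPs was not tested.

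Against Input, 11 members lost their YTHDF1 call in at least 1 fit that left out a single library, 7 their YTHDF2 call and 7 their YTHDF3 call. Beside those given with their genes, the YTHDF1 calls lost were those of Rab11b without Input replicate 2 (adjusted p = 0.0573), Rab40c without Input replicate 1 (0.0694), Rab12 without Input replicate 1 or 2 (0.0502 to 0.0776) and Rab4b without Input replicate 1 or YTHDF1 replicate 1 (0.0602 to 0.0775). The YTHDF2 calls were those of Rab4a without YTHDF2 replicate 1 or 3 (adjusted p = 0.0569 to 0.0608), Rab1a without Input replicate 1 or YTHDF2 replicate 2 or 3 (0.0562 to 0.0685) and Rab15 without Input or YTHDF2 replicate 1 or 2 (0.0534 to 0.0853). The YTHDF3 calls were those of Rab2b (adjusted p = 0.0571 to 0.0704) and Rab4b (0.0805 to 0.0975), each without Input replicate 1 or YTHDF3 replicate 2 or 3. All of these genes stayed below Input in those fits.

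**Figure D4:**
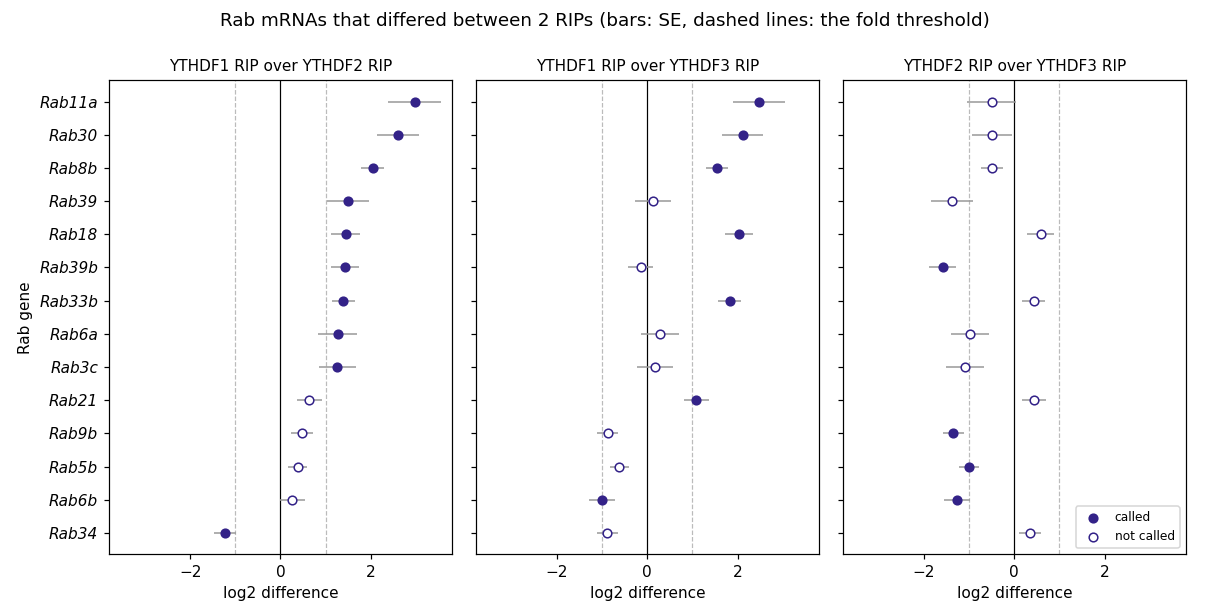
Log2 difference between RIPs (x axis, with SE bars) of the members called (filled points) in at least 1 direct comparison of 2 RIPs (panels), with dashed lines at a fold of 2. Rab11a (2.97) and Rab30 (2.61) have the largest differences of YTHDF1 over YTHDF2, and Rab39b (-1.58) the largest of YTHDF3 over YTHDF2.

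Ratios between paralogs of 1 subfamily, taken within each library from normalized counts plus 1, nearly cancel the scaling of libraries and compare genes of like coding length. Of the 63 ratios (21 pairs in 3 RIPs) no count is read as a result, since with 3 libraries a side the smallest p of a two-sided exact permutation test is 0.1 (0.225 adjusted over the 63), so the test cannot reach 0.05. The log2 ratio of Rab33a to Rab33b was -0.50 ± 0.42 in Input (SD, n = 3), -3.91 ± 0.28 in YTHDF1 RIP, -2.14 ± 0.61 in YTHDF2 RIP and -1.76 ± 0.63 in YTHDF3 RIP. Each RIP lay below Input without overlap, with a change of -3.41 on the log2 scale in YTHDF1 RIP. Rab8a to Rab8b went from -0.27 ± 0.24 in Input to -2.74 ± 0.32 in YTHDF1 RIP and -1.71 ± 0.13 in YTHDF3 RIP, while the YTHDF2 RIP (-0.94 ± 0.44) overlapped Input.

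Ratios to Rab3c, chosen after their values were seen, also moved between abundant genes, with Rab3c, a synaptic vesicle Rab, at 325, 222 and 148 CPM in Input, 191, 285 and 455 CPM with YTHDF1, 154, 93.5 and 140.1 CPM with YTHDF2 and 408, 257 and 163 CPM with YTHDF3. Rab3a to Rab3c was 0.15 ± 0.23 in Input, -1.53 ± 0.26 in YTHDF1 RIP, -0.52 ± 0.44 in YTHDF2 RIP and -1.21 ± 0.24 in YTHDF3 RIP, each RIP below Input without overlap. Rab3b to Rab3c lay below Input (-2.95 ± 0.34) in each RIP as well, at -4.42 ± 0.36, -4.09 ± 0.12 and -4.55 ± 0.25. Rab3c to Rab3d lay above Input (2.96 ± 0.66) at 4.60 ± 0.53 in YTHDF1 RIP and 4.22 ± 0.46 in YTHDF3 RIP and overlapped it in YTHDF2 RIP.

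In the pairs of Rab7 with Rab7b and of Rab27a with Rab27b, 1 partner had low counts. Rab7 to Rab7b was 7.46 ± 1.06 in Input, 5.07 ± 0.28 in YTHDF1 RIP and 5.19 ± 0.28 in YTHDF2 RIP, with Rab7b, a Rab of lysosomal trafficking, at 0.381, 0.879 and 1.82 CPM in Input, 1.39, 1.64 and 1.62 CPM with YTHDF1, 1.06, 1.5 and 1.46 CPM with YTHDF2 and 0.194, 0.815 and 1.98 CPM with YTHDF3. These are values near 1 CPM in which groups overlapped. Rab27a to Rab27b rose from -3.45 ± 0.43 in Input to -1.72 ± 0.70 in YTHDF2 RIP, with Rab27a, a secretory lysosome Rab, at 1.37, 1.17 and 0.643 CPM in Input, 0.578, 0.925 and 1.44 CPM with YTHDF1, 0.664, 0.897 and 1.35 CPM with YTHDF2 and 0.932, 1.3 and 0.893 CPM with YTHDF3. Rab27a itself overlapped Input in every RIP.

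**Figure D5:**
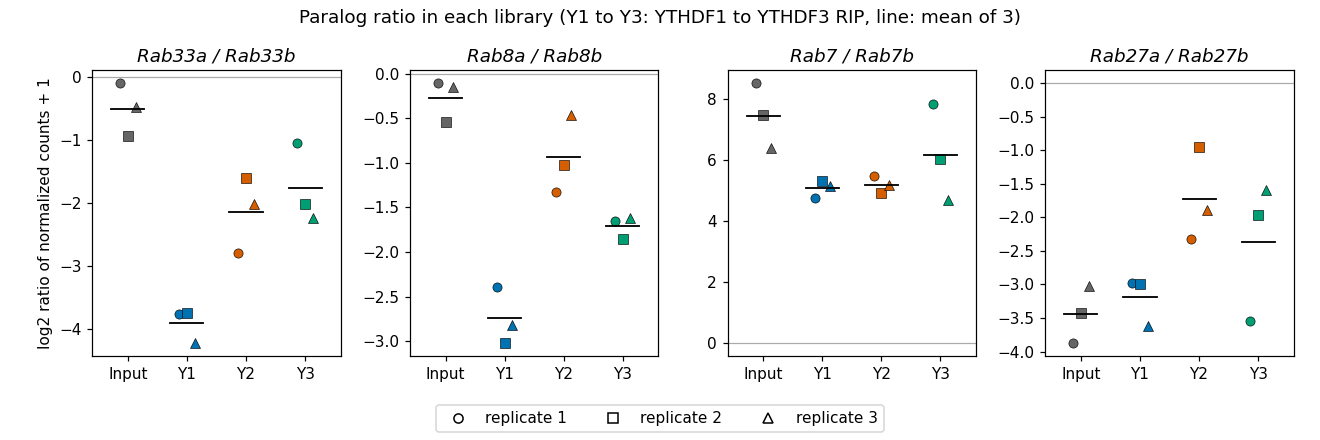
Log2 ratio of paralog pairs (y axis) in each library by group (x axis), with points for libraries and lines for means. Rab33a to Rab33b falls from -0.50 in Input to -3.91 in YTHDF1 RIP, and Rab8a to Rab8b from -0.27 to -2.74.

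Transcript features differed between the members that were enriched and depleted in YTHDF1 RIP, without a test. The 8 enriched members had a median 3′ untranslated region of 3430 bases (265 to 8596), a GC content of 41.6% and 3 GGACT matches. The 29 depleted members had 1514 bases (128 to 5184), 49.3% and 2 matches. Matches per kb of transcript were alike, at medians of 0.858 in the enriched and 0.864 in the depleted members. The 13 members not called had medians of 4 matches and 1.12 per kb. Coding lengths were alike, at medians of 637.5 and 648 bases. Rab33a has a 3′ untranslated region of 128 bases and Rab33b 2436, whereas Rab8a (3767) and Rab8b (4055) differ little. Over the 50 members the Spearman correlation between log2 fold change and 3′ untranslated region length was 0.41 in YTHDF1 RIP, -0.05 in YTHDF2 RIP and 0.28 in YTHDF3 RIP, a description over genes of the same libraries. These feature values are not set beside those of all genes here, so they are not read as particular to Rab genes.

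The proteins that act on Rabs were compared by lists. Rab GEFs went the other way from Rabs, with 19 of 41 tested enriched and 7 depleted in YTHDF1 RIP, 18 and 3 in YTHDF2 RIP and 18 and 5 in YTHDF3 RIP, and medians of 0.62, 0.63 and 0.58. The enriched shares were 46.3%, 43.9% and 43.9%, against 27.5%, 16.1% and 16.7% of all genes. The depleted shares of the GEFs were 17.1%, 7.32% and 12.2%, against 26.1%, 19.3% and 23.2%. Dennd5b, a GEF with a DENN domain, and Madd, the GEF of Rab3, led in YTHDF1 RIP at 1.96 and 1.60. Hps1 and Hps4, which together activate Rab32 and Rab38, led in YTHDF2 RIP at 1.55 and 1.52, and Sbf2 and the TRAPP subunit Trappc10 in YTHDF3 RIP at 1.31 and 1.19. The short TRAPP subunits fell, with Trappc5 at -1.12, -1.11 and -1.38 and Trappc4 at -1.22 in YTHDF1 RIP and -1.29 in YTHDF3 RIP.

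Rab GAPs, most of them TBC domain proteins, had 13, 10 and 15 of 32 enriched and 3, 4 and 2 depleted with YTHDF1, YTHDF2 and YTHDF3, with medians of 0.41, 0.40 and 0.59. The enriched shares were 40.6%, 31.3% and 46.9% (all genes 27.5%, 16.1% and 16.7%). Tbc1d24, which is mutated in epilepsy, was at 3.63 in YTHDF1 RIP and 1.27 in YTHDF3 RIP, Usp6nl at 2 in YTHDF1 RIP, and Tbc1d16 at 1.43 and 1.30 in the YTHDF2 and YTHDF3 RIPs. Rabgap1l was depleted at -1.49 in YTHDF2 RIP. Rab effectors had 17, 10 and 14 of 45 enriched and 3, 5 and 2 depleted, with medians of 0.44, 0.36 and 0.36. Their enriched shares of 37.8%, 22.2% and 31.1% lay nearer to those of all genes. The depleted shares of the effectors were 6.67%, 11.1% and 4.44%, below those of all genes. The dynein adaptors Bicd1 and Hook3 led in YTHDF1 RIP at 3.63 and 3.58, and Rab11fip3, which binds Rab11, was at 1.37 and 1.26 in the YTHDF2 and YTHDF3 RIPs. Rilpl2, a short effector of phosphorylated Rabs, fell in each at -0.64, -0.89 and -0.73.

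The 8 genes of prenylation and membrane cycling had 5, 4 and 3 depleted members and 2, 0 and 1 enriched, with medians of -0.61, -0.53 and -0.43. These are depleted shares of 62.5%, 50% and 37.5% (all genes 26.1%, 19.3% and 23.2%) of 8 genes, and the enriched counts stand against 27.5%, 16.1% and 16.7% of all genes. Rabac1, a receptor that takes up prenylated Rabs, was the lowest at -2.48, -1.91 and -2.77, and Rabif, a chaperone of nucleotide-free Rabs, was at -1.21, -1.51 and -1.06. Chml, a Rab escort protein, was enriched at 0.95 in YTHDF1 RIP and 0.78 in YTHDF3 RIP.

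The Arf, Arl and Ras family genes that were called mostly shared the direction of the Rabs. Arf and Arl genes had 14, 13 and 11 of 24 depleted and 3, 1 and 1 enriched with YTHDF1, YTHDF2 and YTHDF3, with medians of -0.93, -0.63 and -0.51, and Arf4, of the Golgi, was at -2, -1.81 and -2.20. Ras family genes had 12, 10 and 11 of 29 depleted and 1, 2 and 0 enriched, with medians of -0.52, -0.50 and -0.39, and Rala, which controls the exocyst, was at -1.64, -1.78 and -1.25. The depleted shares were 58.3%, 54.2% and 45.8% of Arf and Arl genes and 41.4%, 34.5% and 37.9% of Ras family genes (all genes 26.1%, 19.3% and 23.2%).

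Removal of the coding length trend moved these lists too, and several medians changed sign. GEF medians became -0.31, 0.11 and 0.08 with YTHDF1, YTHDF2 and YTHDF3, so that the direction turned in the first, and the calls went to 3 enriched and 8 depleted, 3 and 1, and 3 and 1. GAP medians became -0.32, -0.10 and 0.03, turning in the first 2, with 3 and 6, 1 and 6, and 5 and 2 called. Effector medians became -0.26, -0.13 and -0.08, turning in all 3, with 7 and 9, 2 and 8, and 2 and 1 called. Arf and Arl medians became -0.23, -0.14 and 0.27, turning in the last, with 7 and 9, 2 and 7, and 5 and 5 called. Ras medians became 0.05, -0.05 and 0.30, turning in the first and last, with 5 and 3, 5 and 6, and 5 and 1 called. These counts stand against 17.9% enriched and 21% depleted, 9.96% and 12.4%, and 9.52% and 11% of protein-coding genes in the same fits. Prenylation genes stayed below 0, at -0.23, -0.33 and -0.14, with 1 and 3, 0 and 3, and 1 and 2 called.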

How the data were processed

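RIP and Input RNA was sequenced from 12 libraries with a stranded total RNA kit with molecular identifiers. According to the submitters' notes and methods, the authors trimmed with cutadapt 3.4, removed duplicates with UMI-tools 1.1.1 and aligned with STAR 2.7.7a. They counted reads per gene with featureCounts 2.0.1 at its strand setting 2, with Ensembl release 97. The deposited table holds these raw counts for 55573 genes and a gene length in bases. The authors' result tables were used only for their mean over samples of counts divided by size factors, a signal without error, which set the rule for Rab genes. Their fold change and p-value columns were not used.

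Genes with a mean of at least 10 counts over size factors were tested (16820) with edgeR 4.0.16 (R 4.3.3), TMM scaling and the quasi-likelihood test in 1 fit of 4 groups without a block. SE is the log2 fold change over the root of F. The biological coefficient of variation was 0.322. Library totals of 6020072 to 38909592 counts set the counting error, which the model includes. Comparisons with Input used a fold of 1.25 and those between RIPs a fold of 2, at an adjusted p of 0.05. CPM values use TMM-scaled library sizes. Alternatives were DESeq2 1.42.0, other scalings and filters, groups fitted alone, replicate blocks, leaving out libraries and removal of length trends by loess (span 0.3), of which the coding length trend was chosen after seeing the data. The main fit, the exonic length trend fit and DESeq2 were run on simulated data, and the coding length and replicate block fits were not. Near-identical genes were found with minimap2 2.31-r1302 at 95% identity over 200 bases. Exact permutation tests used SciPy 1.17.1.

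Groups came from the labels. By the study's methods, each replicate is a separate culture and libraries of 1 number share a lysate. Deviations of same-numbered libraries from their group means correlated with Input at 0.835, 0.539 and 0.812 for the YTHDF3 RIP, but at 0.0895, -0.269 and -0.329 for the YTHDF1 RIP and 0.186, -0.326 and -0.318 for the YTHDF2 RIP.

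The members and lists were chosen with earlier results of these data known. Library values are given for the 3 called members highest and lowest against Input in each RIP, the 2 in each direction between RIPs, the 5 highest per length in Input and 4 paralog pairs with the largest ratio change. Of other lists, up to 2 called genes per direction and RIP with a mean of at least 100 normalized counts were eligible to be named. One of the related gene lists examined is not reported here.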

Additional observations from a re-analysis of the deposited data

Results flagged for a closer look

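Rab8b and Rab18 are singled out because each was called in opposite directions in a pair of RIPs and the direct test of the difference passed. The direct test and the lack of overlap rest on the same libraries as those calls, so they give no separate support. Rab8b was enriched in the YTHDF1 RIP and depleted in the YTHDF2 RIP, and the log2 difference between those RIPs was 2.05 ± 0.25 (SE, adjusted p = 0.000166), with all 3 YTHDF1 libraries above all 3 YTHDF2 libraries. Rab18 was enriched in the YTHDF1 RIP and depleted in the YTHDF3 RIP, and the difference was 2.03 ± 0.32 (SE, adjusted p = 0.00112), again without overlap. Both direct differences remained called after the coding length trend was removed, while the depleted calls against Input did not. With only the compared groups and the replicate block in the fit, the Rab18 difference was 1.69 and not called (adjusted p = 0.063), while that of Rab8b was 1.96 (adjusted p = 0.00297). Deviations of same-numbered YTHDF1 and YTHDF3 RIP libraries from their group means correlated at 0.106, -0.341 and -0.351. Whether the block pairs the right libraries was not tested. The YTHDF1 enrichment of Rab18 was not called with library size alone (0.65, adjusted p = 0.0544), in the 2 groups alone without the block (0.97, adjusted p = 0.057) or with it (0.85, adjusted p = 0.115), or with the exonic length trend removed (0.60, adjusted p = 0.114). YTHDF1 replicate 2 was the highest library for both genes. Without that library the differences were 1.71 for Rab8b (adjusted p = 0.000199) and 1.41 for Rab18 (adjusted p = 0.00106), both called. The YTHDF3 depletion of Rab18 lost its call when any 1 of the 6 libraries was left out (adjusted p = 0.0599 to 0.0847).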

How the results depend on the processing

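The limits are 3 libraries per group, no control-antibody libraries and a trend with coding length. Counts are given as enriched and depleted for the YTHDF1, YTHDF2 and YTHDF3 RIPs against Input. The cause of each shift was not tested unless the setting itself drops samples or genes. Counts in this section without a share of all genes beside them are not read as results about the Rab genes.

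With the coding length trend removed, depleted members numbered 11 in YTHDF1 RIP (median -0.22), the YTHDF2 RIP had 5 enriched and 13 depleted (-0.31) and the YTHDF3 RIP 9 and 5 (0.30, reversed). In all 32 of 150 member values changed sign. Those called in either fit were Rab22a (0.53), Rab35 (0.56) and Rab11b (0.16) in YTHDF1 RIP, Rab2a in the YTHDF2 (0.11) and YTHDF3 RIPs (0.54), and Rab5a (0.20) and Rab14 (0.64) in YTHDF3 RIP. With this and the replicate block together, depleted members numbered 10 in YTHDF1 RIP (-0.22), 5 and 12 were called in YTHDF2 RIP (-0.30) and 11 and 5 in YTHDF3 RIP (0.30), and Rab11b was at 0.16, Rab2a at 0.11 and 0.55 and Rab5a at 0.21.

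With the replicate block over all 12 libraries the counts were 7 and 29, 2 and 24, and 2 and 19. With the block and only the compared groups they were 3 and 18 in YTHDF1 RIP and 5 and 26 in YTHDF3 RIP, with 2 members higher in YTHDF2 than YTHDF1, 1 higher in YTHDF1 than YTHDF3, 0 the other way and 2 higher in YTHDF3 than YTHDF2. Apart from those given beside the results, the block over all libraries changed no call from passing to not passing. Same-numbered YTHDF1 and YTHDF2 libraries did not deviate with their Input, and YTHDF1 and YTHDF2 replicate 2 correlated best with Input replicate 3 (0.471 and 0.568).

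The 2 groups alone gave 4 enriched members in YTHDF1 RIP, 3 higher in YTHDF1 than YTHDF3 and 5 the other way. Members higher in YTHDF3 than YTHDF1, 1 as reported, numbered 2 with DESeq2 size factors or the coding length trend removed with or without the block, 3 with DESeq2, 4 with a minimum mean of 50 or the exonic length trend removed with or without the block, 5 without a filter, 6 with TMM over protein-coding genes and 20 with library size alone. Library size alone also moved the median of all genes, by -0.40 in YTHDF1 RIP and by 0.33 in YTHDF3 RIP. TMM over protein-coding genes gave medians of -0.99 in YTHDF1 RIP and -0.95 in YTHDF2 RIP. Exonic length trend removal gave 5 enriched in YTHDF1 RIP, with or without the block. Library size alone gave 4 enriched in YTHDF1 RIP (-1.15) and 5 in YTHDF3 RIP (-0.086), with 3 higher in YTHDF1 than YTHDF2, 6 the other way and 7 higher in YTHDF3 than YTHDF2. Without a filter 1 member was enriched in YTHDF2 RIP (-0.95) and 1 in YTHDF3 RIP (-0.28), and 9 were higher in YTHDF3 than YTHDF2.

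Leaving out each library in turn gave 5 to 7 enriched and 25 to 29 depleted in YTHDF1 RIP (medians -0.99 to -0.69), 2 to 2 and 20 to 24 in YTHDF2 RIP (-0.88 to -0.77) and 1 to 3 and 12 to 16 in YTHDF3 RIP (-0.50 to -0.39). Members higher in YTHDF1 than YTHDF2 numbered 6 to 8, the other way 1 to 2, in YTHDF1 than YTHDF3 5 to 6, the other way 0 to 3, in YTHDF2 than YTHDF3 0 to 0 and the other way 1 to 3.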
